A study of Homo sapiens with 2 samples.

Results

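The miRNA hairpins (precursors) mir-4632 to mir-4804 are a block of human entries that were catalogued together, largely from breast tissue. They were chosen here by number alone: every row of the deposited count table whose precursor lies, by its number, from hsa-mir-4632 to hsa-mir-4804, with any suffix. This gave 287 of 2363 rows, 180 of 1600 hairpins and 280 of 2042 mature miRNA names. Small RNA was sequenced from hCMEC/D3, an immortalised line of human brain microvascular endothelial cells used to model the blood-brain barrier in culture. The 2 libraries are labelled replicate 2 and replicate 8 of the same cell line, with no treatment and no second group. Nothing in the labels says that they came from separate cultures, so the spread between them may be technical, and a comparison between them is of 2 libraries and not of conditions.

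A miRNA hairpin is usually cut from a longer transcript by Drosha and then trimmed by Dicer into a short duplex. One strand of the duplex, from the 5p or the 3p arm, is loaded into an Argonaute protein, and its seed, the bases near its 5′ end, selects target mRNAs. This cutting can leave counts on both arms of a hairpin, whereas counts on a single arm can also come from an unrelated RNA fragment. Neither pattern alone settles where the reads came from. Some hairpins, called mirtrons, lie at one end or both ends of a short intron and get that end from splicing in place of Drosha. Entries found late in miRNA discovery are often of low abundance.

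The mature sequences of the members with the highest levels are shown first, because most of the counts in the set come from them. They are RefSeq sequences (GRCh38.p14), written 5′ to 3′ with the seed (bases 2 to 8) in capitals. The most abundant member, miR-4792, has no entry in the sequence table used.
hsa-miR-4746-5p: cCGGUCCCaggagaaccugcaga
hsa-miR-4746-3p: aGCGGUGCuccugcgggccga
hsa-miR-4658: gUGAGUGUggauccuggaggaau
hsa-miR-4741: cGGGCUGUccggaggggucggcu
hsa-miR-4758-3p: uGCCCCACcugcugaccacccuc
hsa-miR-4758-5p: gUGAGUGGgagccgguggggcug
hsa-miR-4745-5p: uGAGUGGGgcucccgggacggcg
hsa-miR-4745-3p: uGGCCCGGcgacgucucacgguc
hsa-miR-4725-3p: uGGGGAAGgcgucagugucggg
hsa-miR-4677-3p: uCUGUGAGaccaaagaacuacu
The miR-4746, miR-4745 and miR-4758 arms are given in pairs because these were the hairpins with the most counts over both arms.

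Of the 280 mature names, 149 (53.2%) had no count in either library, against 908 of 2042 (44.5%) in the whole table. The share at 0 was 57.0% in the names from hairpins mir-4417 to mir-4540 and 46.2% in those from mir-3100 to mir-3999. Of the other members 80 had 1 to 9 counts summed over both and 51 had 10 or more. Taking at least 10 counts in both libraries as detection, 22 members (7.86%) were detected, against a background of 26.6% over all 2042 names of the table. Beside them, 13.4% of the 142 names from hairpins mir-4417 to mir-4540 and 19.3% of the 275 names from hairpins mir-3100 to mir-3999 were detected. These shares are descriptions with no test. A total of 4 members reached 100 counts in both libraries and 1 reached 1000, against 284 and 129 of all 2042 names. After repeated rows were reduced to 1 per mature name the libraries held 2721287 counts (replicate 2) and 2727675 counts (replicate 8), so a count of 0 allows a level of up to 1.10 CPM (3 counts; CPM is counts scaled to these totals). Reads carry no molecular identifiers, and every such limit and every interval below covers counting error only.

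The set as a whole was counted 4166 times in replicate 2 and 2884 times in replicate 8, a level of 1294 ± 335 CPM (SD, n = 2). Its share of all counts was 0.153% in replicate 2, with a 95% Wilson interval of 0.149 to 0.158, and 0.106% in replicate 8, with one of 0.102 to 0.110. A single name, miR-4792, held 60.6% of the set in replicate 2 (59.1 to 62.1) and 49.1% in replicate 8 (47.3 to 50.9). Without it the remaining 279 names summed to 571 ± 46.1 CPM, with 1642 and 1468 counts.

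The labelled cell type was checked with marker miRNAs. The counts of the endothelial marker miR-126-3p were 297696 and 313837 (replicate 2 and replicate 8). Of 6 epithelial markers, which breast epithelium also expresses, miR-141-3p had no count, and together they had 251 counts in replicate 2 and 115 in replicate 8. The counts were 118 and 85 for miR-200c-3p, 76 and 27 for miR-200b-3p and 29 and 3 for miR-200a-3p. They were 15 and 0 for miR-205-5p and 13 and 0 for miR-429. The leukocyte markers miR-223-3p and miR-142-3p were at 0 and miR-142-5p had 0 and 2 counts. The epithelial markers and the set were both higher in replicate 2. For the set the log2 ratio of summed CPM (replicate 8 over replicate 2) was -0.53, and without miR-4792 it was -0.16. The part of other cells or RNA in the level of the set was not tested.

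The highest member, miR-4792, was counted 2524 times in replicate 2 and 1416 times in replicate 8, or 723 ± 289 CPM (SD, n = 2), rank 100 of all 2042 names. Its hairpin gene MIR4792 lies on chromosome 3 at 24562853 to 24562926 (GRCh37, minus strand), in an intron of the only same-strand transcript annotated there and opposite THRB-AS1. Replicate 2 was the higher library, and no second arm is listed for this hairpin, so its counts have no support from the other strand of a duplex.

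The second highest level was that of miR-4746-5p, with 312 counts in replicate 2 and 334 in replicate 8 (119 ± 5.51 CPM, rank 193). MIR4746 lies on chromosome 19 at 4445975 to 4446045 (plus strand), with no gene on its own strand and UBXN6, an adaptor of the p97 ATPase, on the other. Its libraries were close, unlike those of miR-4792.

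Then came miR-4658 with 184 counts in replicate 2 and 116 in replicate 8 (55.1 ± 17.7 CPM). MIR4658 is on chromosome 7 at 99754228 to 99754292 (minus strand) and overlaps an exon in each of the 7 transcripts of TRAPPC14, a subunit of a vesicle tethering complex. For miR-4741 the counts were 119 and 133 (46.2 ± 3.56 CPM). MIR4741 is on chromosome 18 at 20513312 to 20513401 (plus strand), where 1 of 6 transcripts of RBBP8, a DNA end resection factor, has an exon. Where a hairpin overlaps an exon on its own strand, its position does not tell reads of the miRNA from reads of the host mRNA.

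Both arms of mir-4758 and of mir-4745 were detected. For miR-4758-3p the counts were 117 in replicate 2 and 95 in replicate 8 (38.9 ± 5.77 CPM), and for miR-4758-5p they were 27 and 30 (10.5 ± 0.761 CPM). MIR4758 is on chromosome 20 at 60907543 to 60907613 (minus strand) and overlaps an exon of the 1 transcript of LAMA5 annotated there, which encodes a laminin chain of vascular basement membranes. The 5′ end of this hairpin is 1 base from the start of an annotated intron and its 3′ end 6 bases from the end of one. Any shared base was counted as exon overlap, so this overlap may lie only at the ends of the hairpin. For miR-4745-5p the counts were 95 and 81 (32.3 ± 3.69 CPM), and for miR-4745-3p they were 87 and 63 (27.5 ± 6.27 CPM). MIR4745 is on chromosome 19 at 804940 to 805001 (plus strand) within PTBP1, a repressor of alternative splicing, where 1 of 18 transcripts has an exon. The corresponding distances to intron ends are 0 and 11 bases for this hairpin. The levels of host mRNAs were not measured in these libraries.

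The remaining members among the 15 highest lay between 7.34 and 13.4 CPM. The counts in replicate 2 and replicate 8 were 31 and 42 for miR-4725-3p, which lies in an intron of the lncRNA MIR365BHG on chromosome 17, and 29 and 24 for miR-4677-3p, in an intron of SDCCAG8 on chromosome 1. They were 26 and 27 for miR-4685-3p (intron of HPS1, chromosome 10), a host that acts in making lysosome-related organelles. For miR-4687-3p they were 28 and 16. Its hairpin overlaps an exon in 9 of 15 transcripts of STIM1, the calcium sensor of the endoplasmic reticulum. Neighbours in this order are not separated at this depth: miR-4677-3p and miR-4685-3p differed by less than their spread (9.73 ± 1.31 and 9.73 ± 0.243 CPM). The counts were 25 and 19 for miR-4726-5p (intron of MLLT6, chromosome 17), 19 and 25 for miR-4763-5p (exon of MIRLET7BHG, the host transcript of let-7 hairpins on chromosome 22) and 25 and 15 for miR-4804-5p (intron of TNPO1, a nuclear import receptor, chromosome 5). The other 7 detected members, miR-4683, miR-4661-5p, miR-4742-3p, miR-4645-3p, miR-4688, miR-4664-3p and miR-4755-5p, were between 4.04 and 7.34 CPM, with 10 to 24 counts in either library. The median over the 22 detected members was 8.90 CPM, against 49.9 CPM over all 543 detected names.

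**Figure D1:**
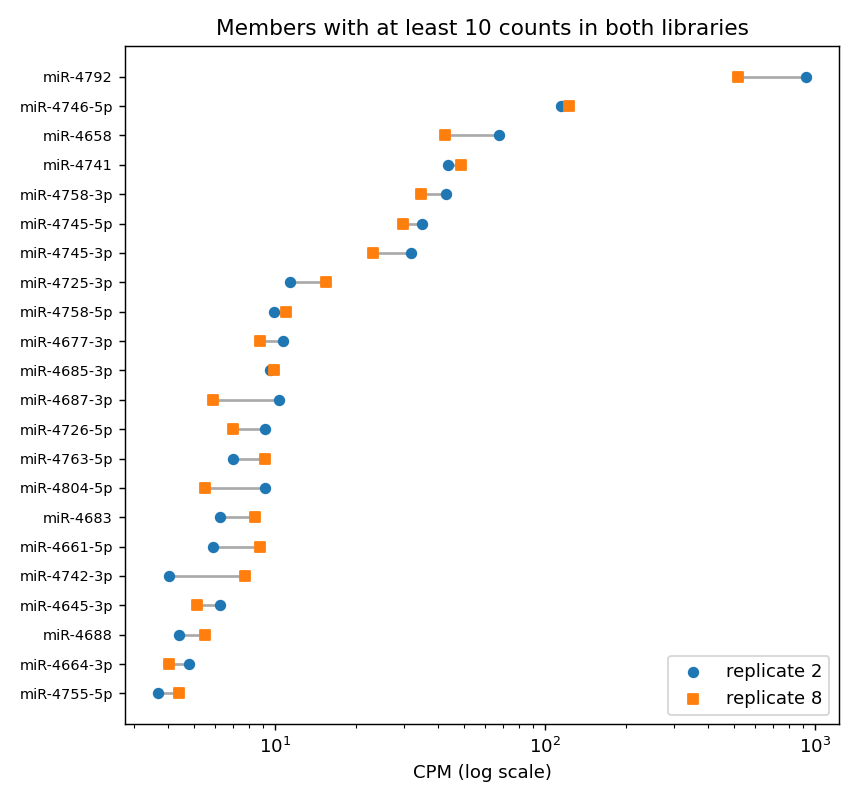
Level of each of the 22 detected members in replicate 2 (circles) and replicate 8 (squares), in CPM on a log axis, with a line joining the libraries. The name miR-4792 stands alone at the top, 6 names lie between about 23 and 122 CPM, and the other 15 are at 15.4 CPM or below.

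A further 16 members reached 10 counts in one library only, 13 of them in replicate 2 and 3 in replicate 8. Over all 2042 names 58 did so in replicate 2 alone and 28 in replicate 8 alone. Those in replicate 2 had 10 to 19 counts there and 1 to 9 in replicate 8. The counts were 19 and 1 for miR-4767, 19 and 8 for miR-4728-3p, 18 and 6 for miR-4674, and 15 and 6 for miR-4738-3p. The hairpin of miR-4728-3p lies in an intron of ERBB2, a receptor tyrosine kinase that is amplified in a subset of breast cancers. They were 13 and 8 for miR-4690-3p, 12 and 3 for miR-4680-5p, 10 and 4 for miR-4731-5p and 10 and 3 for miR-4676-3p. The remaining 5, miR-4706, miR-4743-5p, miR-4721, miR-4761-3p and miR-4734, had 10 counts in replicate 2 and 6 to 9 in replicate 8. In the other direction miR-4781-3p had 9 and 14 counts, miR-4684-3p 7 and 13, and miR-4787-3p 8 and 10. Most of these pairs straddle the threshold by a few counts. With any count at all as the criterion, 107 members were seen in replicate 2 and 109 in replicate 8, and 85 in both. The 46 seen in one library only (22 in replicate 2 and 24 in replicate 8) had at most 5 counts. Over all 2042 names, 1007 had a count in replicate 2, 1012 in replicate 8 and 885 in both.

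Support from both arms was examined for the 107 member hairpins for which the table lists a 5p and a 3p row. With at least 5 counts summed over the libraries on each arm, 10 hairpins had both arms (9.35%), against 34.4% of the 639 such hairpins in the table. A further 31 had one arm past this limit, 16 with the 5p arm and 15 with the 3p arm, and 66 had neither. Depth differs between the set and the table, so hairpins were also grouped by the counts of their better arm. With 5 to 29 counts on the better arm, 5 of 28 member hairpins had both arms (17.9%), against 19 of 110 in the table (17.3%). With 30 to 99 counts it was 2 of 10 against 30 of 70 (42.9%), and with 100 or more but under 1000 counts 3 of 3 against 70 of 93 (75.3%). These are counts with no test.

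Among the 10 hairpins the arms were used in very different proportions. For mir-4746 the 5p arm held 98.4% of the hairpin's counts in replicate 2 (96.4 to 99.3, 95% Wilson) and 98.8% in replicate 8 (97.0 to 99.5), with 5 and 4 counts on the 3p arm. For mir-4745 neither arm dominated, with a 5p share of 52.2% (45.0 to 59.3) and 56.3% (48.1 to 64.1). For mir-4758 the 3p arm was the larger, with a 5p share of 18.8% (13.2 to 25.9) and 24.0% (17.4 to 32.2). In each of these hairpins the intervals of the libraries overlapped. The 3p arm was also the larger for mir-4725, with 4 and 5 counts on its 5p arm.

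The other 6 had few counts. For mir-4755 there were 10 and 12 counts on the 5p arm and 5 and 6 on the 3p arm, a 5p share of 66.7% in each library. For mir-4804 there were 25 and 15 counts on the 5p arm and 5 and 0 on the 3p arm. The more abundant arm of mir-4676 differed between the libraries, with 4 and 9 counts on the 5p arm and 10 and 3 on the 3p arm, and the intervals of its 5p share overlapped (11.7 to 54.6 and 46.8 to 91.1). In mir-4797, mir-4701 and mir-4709 no arm exceeded 6 counts in either library. The more abundant arm of mir-4797 also differed, with 5 and 1 counts on the 5p arm and 1 and 6 on the 3p arm. Its intervals overlapped (43.6 to 97.0 and 2.57 to 51.3). The 5p arms of mir-4701 and mir-4709 each had 5 counts in replicate 2 and 0 in replicate 8, so their both-arm counts rest on 1 library. Member hairpins with a detected arm and no count on the other were mir-4661, mir-4664, mir-4685 and mir-4687.

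**Figure D2:**
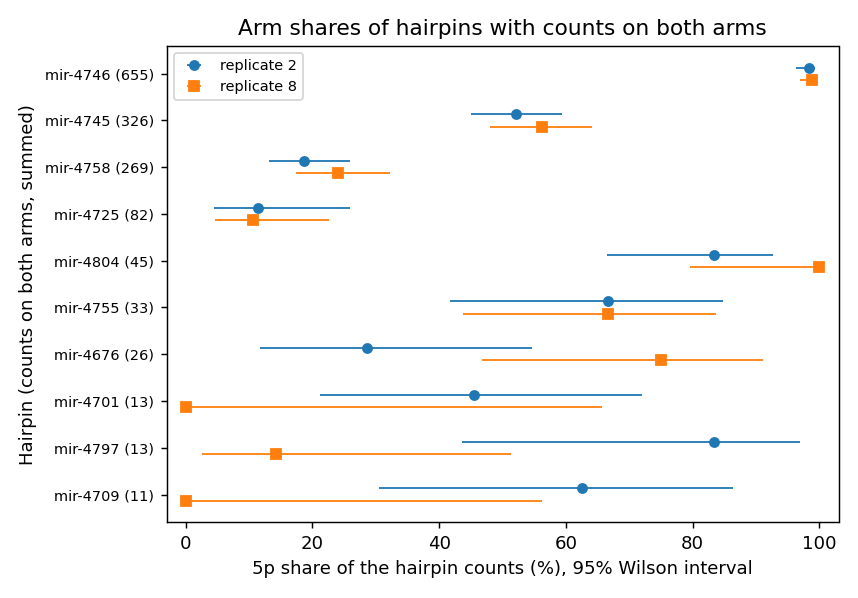
Share of the counts of each hairpin that lay on the 5p arm (%), in replicate 2 (circles) and replicate 8 (squares), with 95% Wilson intervals, for the 10 hairpins with at least 5 summed counts on each arm. The counts over both arms and libraries are in parentheses, and the hairpins run from almost all 5p (mir-4746) to mostly 3p (mir-4725).

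Agreement between the libraries was read for the 51 members that reached 10 counts in sum. Their median absolute log2 ratio (replicate 8 over replicate 2, on total counts, with 0.5 counts added) was 0.44, against 0.33 over the 695 names with at least 10 summed counts. A log2 ratio within 0.5 of zero was found for 28 of the 51 and one beyond 1 for 10, against 456 and 93 of the 695. Grouped by depth, the median was 0.58 in 32 members with 10 to 29 counts, against 0.71 in 138 other names. It was 0.41 in 12 members with 30 to 99 counts, against 0.42 in 146 other names, and 0.27 in 6 members with 100 or more but under 1000, against 0.32 in 187. In the 1 member above that, miR-4792, the absolute log2 ratio was 0.84, against a median of 0.17 in 173 other names. Across the 51 members Pearson's r on log2(CPM + 1) was 0.915 and Spearman's rho 0.681, against 0.984 and 0.960 across the 695 names. These are correlations across names that share 2 libraries, and they depend on the range of levels. Of the 51 members 32 had 10 to 29 summed counts, against 170 of the 695 names. Without miR-4792 the members' correlations were 0.872 and 0.661.

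**Figure D3:**
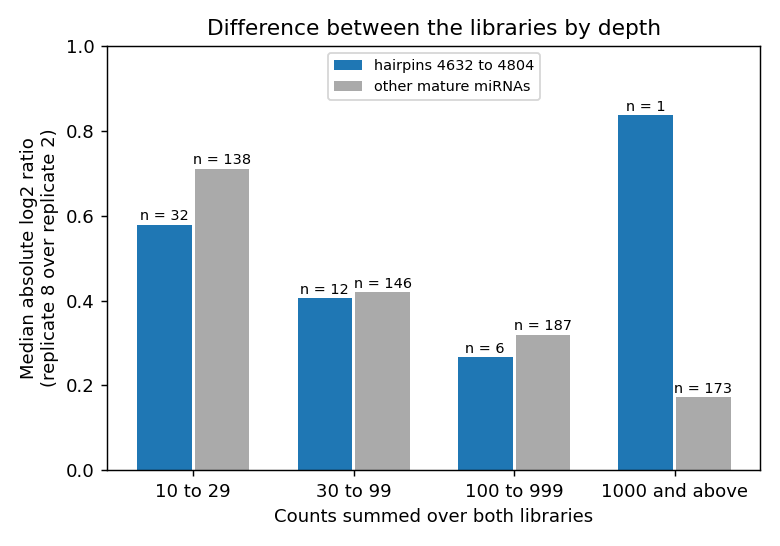
Median absolute log2 ratio between the libraries for members (dark bars) and other mature miRNAs (grey bars), grouped by counts summed over both libraries, with the number of names on each bar. The members' median is 0.58, 0.41, 0.27 and, for miR-4792 alone in the deepest group, 0.84, and that of the other names 0.71, 0.42, 0.32 and 0.17.

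An exact binomial test (two-sided, of the count in replicate 8 given the sum, Benjamini-Hochberg adjusted over all 695 names) found 4 of the 51 members to differ between the libraries, against a background of 34.2% of all names tested. All 4 were lower in replicate 8, where the background for that direction is 23.5%, and no member was higher, where it is 10.8%. The power of this test rises with depth: among names with 10 to 29 summed counts, 2 of 32 members and 8 of 138 others passed. With 30 to 99 counts 0 of 12 members and 27 of 146 others passed, and with 100 or more but under 1000 it was 1 of 6 and 67 of 187. These shares were not tested against each other.

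For miR-4792, with 2524 and 1416 counts, the log2 ratio was -0.84 (-0.93 to -0.74 at 95%, adjusted p = 1.1e-69 by the exact binomial test). For miR-4658, with 184 and 116 counts, it was -0.67 (-1.02 to -0.33, adjusted p = 0.000448 by the same exact test). These exceed counting error, the only error the test holds.

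The other calls rest on few counts. For miR-4767, with 19 counts and 1 count, the log2 ratio was -3.70 (-9.63 to -1.60, adjusted p = 0.000121 by the exact test). Its hairpin is on chromosome X at 7065901 to 7065978 (plus strand) within STS, steroid sulfatase. For miR-4674, with 18 and 6 counts, the log2 ratio was -1.51 (-3.21 to -0.19, exact binomial adjusted p = 0.0435). This last call was lost with TMM-scaled library sizes, with DESeq2 size factors and with no filter on low counts, each of which left 3 members past the threshold. Either scaling raises every log2 ratio by 0.10. Over the 51 members 20 were higher and 31 lower in replicate 8 on total counts (median log2 ratio -0.16, against -0.11 over all names), and 23 higher and 28 lower under either scaling.

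**Figure D4:**
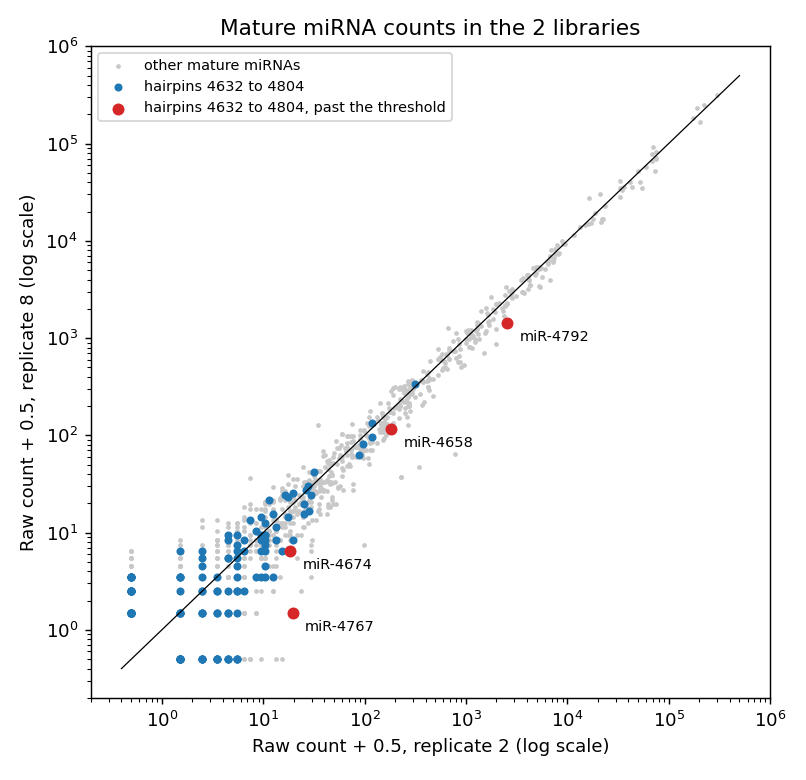
Raw counts plus 0.5 of each mature miRNA with at least 1 count, in replicate 2 (x axis) and replicate 8 (y axis), both on log axes, with the line of equal counts. Members are blue, other names grey and the 4 members past the threshold of the exact binomial test red; all 4 lie under the line.

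Base composition was not used to choose the set. Of the 280 members 250 had a RefSeq sequence, with a median GC content of 52.2%. It was 66.7% in the detected members (18 with a sequence), 66.6% in those with 10 counts in one library only (16), 54.8% in those with fewer counts (82) and 47.5% in those at 0 in both libraries (134). Outside the set the median was 50% in detected names (417 with a sequence) and 47.8% in names at 0 (651). A GC content of 60% or more was found in 12 of 18 detected members and 29 of 134 at 0. Mature length did not separate the classes, with a median of 22.5 bases in the detected members and 22 in those at 0. The part of base composition in detection was not tested. An exact second copy of the mature sequence in the GRCh37 chromosomes was found for 25 of the 250 members. Of these, 19 were at 0 in both libraries and 1, miR-4755-5p, was detected, beside 134 and 18 of all 250. For some at 0, such as miR-4679, miR-4771 and miR-4773, the second copy is a second listed hairpin of the same miRNA. Copies were not counted for names outside the set.

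**Figure D5:**
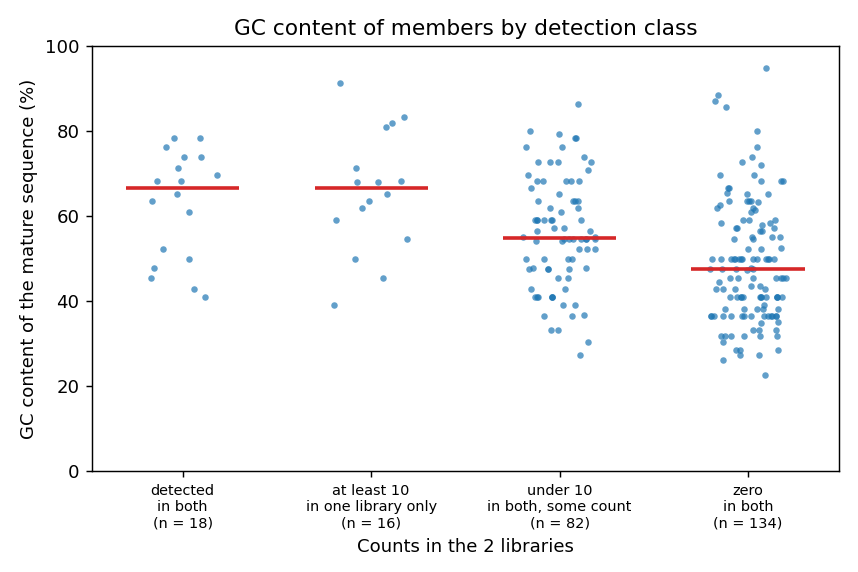
GC content (%) of the mature sequence of each member with a RefSeq sequence, by its counts in the 2 libraries, with a red line at the median of each class. The medians fall from 66.7% in the detected members to 47.5% in the members at 0 in both libraries, and each class spans a wide range.

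Hairpin positions came from the GENCODE annotation mapped to GRCh37, which holds 173 of the 180 hairpins. Of these 90 were in introns of a gene on the same strand, 40 overlapped an exon of at least 1 same-strand transcript, 22 lay only opposite a gene and 21 were outside genes. Of the 20 hairpins with a detected arm, 12 were intronic, 7 overlapped an exon and 1 was antisense. Any shared base counted as exon overlap, and the 7 include mir-4745 and mir-4758, which are also among the splice-site hairpins below. Among the 345 located hairpins of the whole table with a detected arm, 198 were intronic, 82 overlapped an exon, 27 were antisense and 38 outside genes. A total of 27 hairpins (15.6%) had an end within 5 bases of an annotated splice site, against 57 of 1227 located hairpins of the whole table (4.65%). The 57 include these 27, so the whole-table share is not that of hairpins outside the set. In 21 of the 27 it was the 3′ end of the hairpin at the splice acceptor of its intron. In 5 it was the 5′ end at the donor and in 1, mir-4695 in ALDH4A1, both. The other end of the intron could be far away: the donor lay 10808 bases from mir-4639 and 6048 bases from mir-4743. It could also be close: in the 5 hairpins at a donor the nearest acceptor lay 6 (mir-4758) to 39 bases (mir-4688) away. Among the hairpins at an acceptor, the donor lay 23 bases from mir-4722. Of the 27 hairpins 6 (22.2%) had a detected arm and 3 had no count, whereas of the 146 others 14 (9.59%) had a detected arm and 70 no count. The whole table, members included, had a detected arm in 20 of 57 hairpins at a splice site (35.1%) and 325 of 1170 others (27.8%). Members made up 27 of these 57 but 146 of the 1170, so these shares do not describe hairpins outside the set. The 6 member hairpins at a splice site with a detected arm were mir-4685, mir-4688, mir-4726, mir-4742, mir-4745 and mir-4758. GC content moves with position too: members at 0 had a median of 66.1% at splice sites (14 names) and 45.5% elsewhere (114 names), and detected members 69.6% (7 names) and 60.9% (11 names). The part of position in detection was not tested.

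The intron end is visible in the mature sequences. Of 16 hairpins at an acceptor alone with a 3p sequence, 11 had a 3p miRNA ending in AG, the last bases of most introns, and in 11 it reached the last base of the hairpin. Of 70 3p miRNAs from hairpins located away from splice sites 1 ended in AG. The acceptor hairpins were grouped by that position, so a 3p miRNA that reaches the hairpin's end carries the intron's AG through the grouping. The contrast describes reference sequences and not counts. The examples with the most counts follow, with the final AG in capitals.
hsa-miR-4685-3p: ucucccuuccugcccuggcuAG
hsa-miR-4742-3p: ucuguauucuccuuugccugcAG
hsa-miR-4728-3p: caugcugaccucccuccugccccAG
The first ends at the acceptor of an HPS1 intron on chromosome 10 (hairpin at 100191049 to 100191117, minus strand). The second ends at that of a WDR26 intron on chromosome 1 (224585929 to 224586013, minus strand), with 11 and 21 counts. The third ends in ERBB2 on chromosome 17 (37882748 to 37882814, plus strand). The counts did not favour that arm across the group: of the acceptor hairpins with both arms listed and unequal counts, 12 had more on the 5p arm and 6 on the 3p arm, with 127 and 142 counts in sum.

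Seeds were compared because members with the same bases 2 to 8 would share predicted targets. The 250 members with a sequence had 243 different seeds, and 14 shared theirs with another member, in 7 pairs. The sequences of these pairs are shown with the seed in capitals.
hsa-miR-4741: cGGGCUGUccggaggggucggcu
hsa-miR-4675: gGGGCUGUgauugaccagcagg
hsa-miR-4706: aGCGGGGAggaagugggcgcugcuu
hsa-miR-4749-5p: uGCGGGGAcaggccagggcauc
hsa-miR-4700-5p: uCUGGGGAugaggacagugugu
hsa-miR-4667-5p: aCUGGGGAgcagaaggagaacc
hsa-miR-4654: uGUGGGAUcuggaggcaucugg
hsa-miR-4769-5p: gGUGGGAUggagagaagguaugag
hsa-miR-4673: uCCAGGCAggagccggacugga
hsa-miR-4645-5p: aCCAGGCAagaaauauugu
hsa-miR-4720-5p: cCUGGCAUauuugguauaacuu
hsa-miR-4799-3p: aCUGGCAUgcugcauuuauaua
hsa-miR-4739: aAGGGAGGaggagcggaggggcccu
hsa-miR-4756-5p: cAGGGAGGcgcucacucucugcu
Only in the first pair was a partner detected, miR-4741, while miR-4675 was at 0. In the second pair miR-4706 had 10 and 9 counts and miR-4749-5p 3 and 2, and in the third miR-4700-5p had 6 and 8 and miR-4667-5p 4 and 1. The others had at most 4 counts in a library, and the last 2 pairs were at 0.

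Among the 50 most abundant names of the table, those with a RefSeq sequence included 1 that shared its seed with a member. It was miR-452-5p, with 7642 counts in replicate 2 and 8267 in replicate 8, and its partner miR-4676-3p had 10 and 3.
hsa-miR-4676-3p: cACUGUUUcaccacuggcucuu
hsa-miR-452-5p: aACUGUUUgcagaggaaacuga
Further down, miR-4770 shared its seed with miR-143-3p, a miRNA of smooth muscle and pericytes with 2000 and 871 counts, but was itself at 0. The same was true of miR-4735-3p, at 0, and miR-18a-5p of the miR-17-92a cluster, with 154 and 138 counts. Likewise miR-4794 was at 0 and shared its seed with miR-664a-5p (163 and 101 counts). Members with some counts were miR-4665-5p (9 and 8), sharing with miR-1275 (266 and 200), and miR-4701-3p (6 and 2), sharing with miR-1262 (90 and 91). In each of these cases the member added little or nothing to the counts that carry the seed.

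The edges of the number range were unremarkable. Inside it, miR-4632-3p had 2 counts in each library and miR-4632-5p none, and miR-4804-5p is among the detected members. Just outside it, miR-4540 was at 0, miR-4999-5p had 3 and 6 counts and miR-4999-3p none.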

How the data were processed

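Small RNA libraries of hCMEC/D3 were analysed, replicate 2 and replicate 8 of 1 group. The deposited table gives raw counts per pair of mature miRNA and precursor, named as raw counts per the file headers, and RPM values, which the authors obtained by dividing the counts by 1 constant per library. The submitters' processing notes name CASAVA 1.9, FastQC, cutadapt, Bowtie 0.12.7 and the hg19 build; the counter and the miRBase release are not given in the sources used here. Per the labels' protocols, adaptors were ligated to both RNA ends, products were amplified by PCR and a gel fraction was kept. Ligation, PCR and size selection shape which miRNAs are captured, so a count compares 1 miRNA between libraries better than different miRNAs within one.

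Where a mature name had several rows, the one with the most counts on average was used. The 7 members with several rows had no counts. CPM used the totals of these rows. A read covers a whole mature miRNA, so no length correction was made. A single group allows no test of conditions; the exact binomial test (scipy 1.17.1) was tested on simulated data. TMM factors came from edgeR 4.0.16 and size factors from DESeq2 1.42.0. Wilson intervals came from statsmodels 0.14.6. Positions are GENCODE's on GRCh37, the assembly of hg19, and sequences RefSeq's on GRCh38.p14; chromosome 8 sequences were not used. Named were all detected members, those with 10 counts in one library, those past the threshold of 0.05 and both arms of hairpins with both-arm counts, in full for the 15 highest; edge values were named by the number rule, and seed partners outside the set and splice-site examples after their values were seen. The GC, position and splice-site comparisons were added after seeing the data. The members, lists and rules were chosen with earlier results of these data known.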

Additional observations from a re-analysis of the deposited data

How the results depend on the processing

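Of 30 recomputed values over 5 summary results, 18 stayed close to those reported and 12 moved; none reversed. The detection limit set the number of detected members: 85 with at least 1 count in both libraries, 43 with at least 5 and 8 with at least 30. Over all 2042 names the numbers at these limits were 885, 647 and 404. With 1 library alone the number of detected members was 25 (without replicate 2) to 35 (without replicate 8), against 571 and 601 over all names. The summed level was 571 CPM without miR-4792, and 1057 to 1531 CPM with 1 library left out. Hairpins with both arms numbered 30 at 1 summed count on each arm and 4 at 10, and 4 to 6 with 1 library left out. At a minimum of 30 summed counts, 2 members differed between the libraries, since fewer were tested. The median absolute log2 ratio was 0.30 at 100 or more summed counts (7 members) and 1.20 at 1 or more (131 members). Each of these alternatives changes the counts required, the names summed or the libraries used, and the values move with that. No paired analysis was possible because there is 1 group. Levels near 10 counts cannot be ordered.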
